A study of Mus musculus with 18 samples.

Results

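Levels and isoproterenol changes were described for 6 collagen genes, Col8a1, Col8a2, Col11a1, Col12a1, Col14a1 and Col16a1, taken by symbol from the 53342 gene identifiers that were counted in each of 18 RNA-seq libraries. The libraries hold Thy1+ cells sorted from mouse hearts, a population written in the labels as Thy1+ HE or Thy1+HE-, with HE not spelled out. Thy1 marks cardiac fibroblasts, the cells that make most of the heart's collagen. The mice were of the inbred strains KK/HlJ, C3H/HeJ and C57BL/6, and the labels give them no allele beyond the strain and no age. In each strain there were ISO libraries at day 14, ISO libraries at day 21 and sham libraries, with 2 libraries in each of the 9 groups. ISO is isoproterenol, an agonist of beta-adrenergic receptors that loads and injures the heart, given from implanted pumps, and sham hearts received saline. No day is given for sham hearts, so the changes at the 2 days were taken against the same sham libraries. The labels do not say whether the 2 libraries of a group came from separate animals or from pools, so every p-value measures the spread between libraries, which may be technical.

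Collagens are built from 3 chains that wind around each other along stretches in which each triplet of residues opens with glycine, written Gly-X-Y. Collagen VIII, of the chains encoded by Col8a1 and Col8a2, is a short-chain collagen that forms open networks in blood vessel walls and beneath the corneal endothelium. Collagens XII and XIV (Col12a1 and Col14a1) belong to the fibril-associated collagens with interrupted triple helices, called FACITs, which sit on the surface of collagen I fibrils and affect how these pack. Collagen XVI (Col16a1) is grouped with the FACITs as well. Collagen XI, of which Col11a1 encodes a chain, is a minor fibril-forming collagen, best known from cartilage, that takes part in starting fibrils and in limiting their width.

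The coding sequences of the 6 genes showed the layouts of these classes, Col11a1 that of a fibril-forming collagen. Runs of at least 5 consecutive Gly-X-Y triplets were counted in the longest annotated coding sequence of each gene. In Col12a1 the runs lay at the end of a long chain, between codons 2749 and 3046 of 3065, and took 8.22% of codons. Col14a1 had the same number of runs, 5, with the same total of 84 triplets and the same longest run of 32 triplets, between codons 1464 and 1761 of 1798. Col8a1 and Col8a2 also matched each other, with 9 runs each and 154 triplets in each chain, in 744 and 699 codons. Col16a1 was the most interrupted, with 21 runs that added up to 333 triplets. Col11a1 went against a fibril-associated or short-chain label: its longest run was 338 unbroken triplets, as long as that of Col1a1, the main fibril-forming collagen of the heart (338 triplets), and close to that of Col3a1 (344 triplets). The gene is kept here as the minor fibril-forming member.

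**Figure D1:**
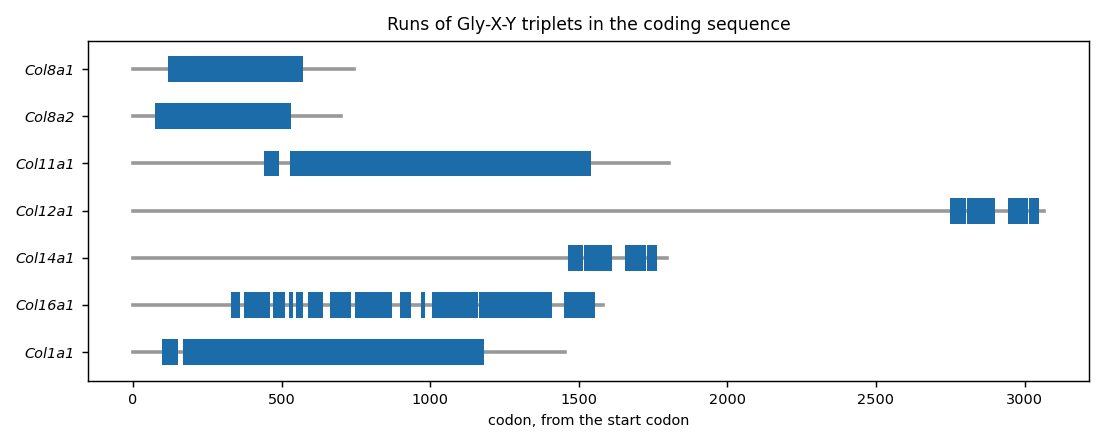
Runs of at least 5 Gly-X-Y triplets (blue) along the coding sequence (grey line) of the 6 genes and of Col1a1, with the codon number from the start codon on the x axis. Col12a1 and Col14a1 carry 5 short runs at the end of the chain, Col8a1 and Col8a2 a central block, Col16a1 21 runs, and Col11a1 a run of 338 triplets like that of Col1a1.

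All 6 genes are protein coding on mm10. Col8a1 (ENSMUSG00000068196) lies on chromosome 16, 57624258 to 57754737, minus strand, and Col8a2 (ENSMUSG00000056174) on chromosome 4, 126286793 to 126314330, plus strand. Col11a1 (ENSMUSG00000027966) lies on chromosome 3, 114030540 to 114220718, plus strand, and Col12a1 (ENSMUSG00000032332) on chromosome 9, 79598991 to 79718831, minus strand. Col14a1 (ENSMUSG00000022371) lies on chromosome 15, 55307750 to 55520803, plus strand, and Col16a1 (ENSMUSG00000040690) on chromosome 4, 130047840 to 130099283, plus strand. Annotated genes on the opposite strand overlap Col12a1 and Col14a1, but share no exon with them. The counted reads of those overlapping genes summed to at most 149 per gene over the 18 libraries. Whether reads were assigned by strand is not known from the labels.

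The 250 bases before the start of transcription of Col8a1 and Col8a2 are shown because these genes encode partner chains of collagen VIII. Capitals mark matches to GGGCGG (the GC box) or GTCTG (a SMAD-binding core), on either strand. The sequences are from RefSeq on GRCm38.p6, chr16:57754738-57754987 on the minus strand and chr4:126286544-126286793 on the plus strand, written 5′ to 3′ along the gene.
Col8a1: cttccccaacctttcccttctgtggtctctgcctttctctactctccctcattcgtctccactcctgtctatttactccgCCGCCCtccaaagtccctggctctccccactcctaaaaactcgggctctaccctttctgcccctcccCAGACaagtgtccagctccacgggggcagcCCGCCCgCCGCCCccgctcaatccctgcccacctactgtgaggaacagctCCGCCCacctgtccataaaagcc
Col8a2: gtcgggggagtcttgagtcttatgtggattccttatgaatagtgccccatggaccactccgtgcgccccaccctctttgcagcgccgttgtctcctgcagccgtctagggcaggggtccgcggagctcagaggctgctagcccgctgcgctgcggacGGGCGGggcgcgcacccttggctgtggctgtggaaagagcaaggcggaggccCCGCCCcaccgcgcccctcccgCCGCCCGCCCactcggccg
Both promoters held 4 matches to GGGCGG, which 32.7% of the 32851 mouse promoter windows of this length hold at least once. In Col8a2 the matches at 19 and 15 bases before the start overlap each other. Col8a1 also had 1 match to GTCTG, 103 bases before the start, a motif found in 42.2% of windows, and Col8a2 had none. Neither window held TATAAA (12.4% of windows), CCAAT (33.8%), TGANTCA (6.75%), TGACG (17.8%) or GGAATG (12.6%). The G and C content was 60.8% for Col8a1 and 70% for Col8a2, with 10 and 24 CG pairs. A match describes letters, and binding was not measured.

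The libraries held 7230741 to 26280685 counted reads. All 6 genes passed the filter on low counts, which kept 15762 genes. Markers of fibroblasts had a high sum in every library, between 82249 and 137792 CPM (read counts scaled by library size). The 11 genes include Pdgfra, Tcf21, Dcn and Thy1 and also Col1a1 and Col1a2, and the sum does not give the level of each. Markers of other cells were far lower. The highest were the 11 pericyte and smooth muscle markers, which summed to 920 to 5515 CPM, and the 7 mesothelial markers summed to 103 to 543 CPM. The 11 endothelial markers summed to 200 to 1141 CPM, the 9 macrophage and monocyte markers to 7.53 to 218 CPM, and 7 cardiomyocyte markers to 54.5 to 340 CPM. Lymphocyte markers summed to at most 1.1 CPM, with Cd3d and Klrb1c at 0 in all 18 libraries. The 4 libraries that agreed least with the others were KK/HlJ ISO day 14 replicate 1, KK/HlJ ISO day 21 replicate 1, KK/HlJ sham replicate 1 and C3H/HeJ sham replicate 1, with median correlations of 0.811, 0.848, 0.846 and 0.839 over genes, against 0.862 to 0.912 in the others.

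Levels between genes were compared as CPM per kilobase of the longest coding transcript. Col14a1 was the most abundant of the 6, at 202 ± 84.3 CPM per kilobase (SD, n = 18 libraries), below Col3a1 at 1651 ± 787 and Col1a1 at 859 ± 316 CPM per kilobase. Col16a1 followed at 49.6 ± 16.8 and Col8a1 at 43 ± 22.2 CPM per kilobase. These neighbours in the order did not separate: Col16a1 was above Col8a1 in 11 of 18 libraries. Col8a2, at 10.7 ± 5.46 CPM per kilobase, was below its partner Col8a1 in 18 of 18 libraries, and in 15 of 18 when the lengths of all annotated exons were used. Col12a1 stood at 2.94 ± 1.78 CPM per kilobase and Col11a1 at 0.15 ± 0.223. Apart from Col16a1 and Col8a1, the order Col14a1, Col16a1, Col8a1, Col8a2, Col12a1, Col11a1 held in 18 of 18 libraries on transcript length. Among 44 collagen genes ranked on all-exon length, Col14a1 was 9th, Col16a1 14th, Col8a1 15th, Col8a2 18th, Col12a1 24th and Col11a1 38th.

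**Figure D2:**
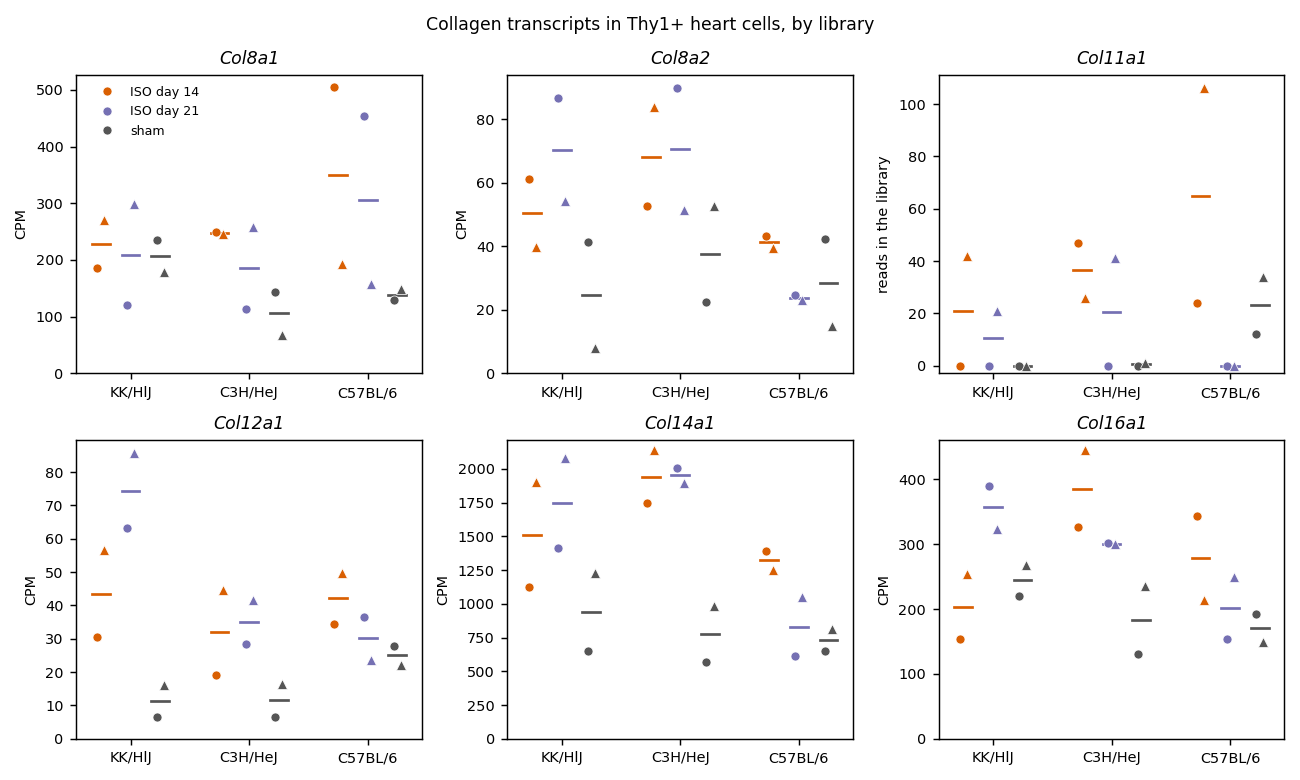
CPM of each gene in each library (for Col11a1, the number of reads in the library), by strain on the x axis and condition by colour. Circles are replicate 1, triangles replicate 2, and bars the group mean. Every ISO library but 1 lies above both sham libraries of its strain for Col12a1, while Col8a2 overlaps sham in 6 of 12 ISO libraries (4 of 12 on total counts).

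The comparison of ISO with sham asks how far these collagens differ in sorted fibroblasts after ISO. Averaged over the 3 strains and both days, the 5 members with reads in every library had positive log2 fold changes of ISO over sham, 1.46 (SE 0.31) for Col12a1 and 0.88 (SE 0.193) for Col14a1. None of the 6 reached an adjusted p under 0.05 in edgeR's quasi-likelihood test with Benjamini-Hochberg adjustment, where 9 of 15762 genes (0.0571%) did. The adjusted p was 0.0836 for Col12a1 and 0.0906 for Col14a1. At an unadjusted p under 0.05, 5 of the 6 were higher and none was lower, while 3.21% of all genes tested were higher and 3.48% lower. The other 3 were Col8a1 at 0.78 on the log2 scale (SE 0.304; edgeR adjusted p = 0.658), Col8a2 at 0.77 (SE 0.325; 0.685) and Col16a1 at 0.51 (SE 0.189; 0.602). The median of the 5 was 0.78, against 0.03 over all genes tested. The 6 genes were chosen with earlier results of these data known, so their contrasts with all genes do not test the family. Col11a1 had no read in 8 libraries and its fold change is not given. Within strains over both days edgeR called no member either, where it called no gene in KK/HlJ (0%), 1 in C3H/HeJ (0.00634%) and none in C57BL/6 (0%). At an unadjusted p under 0.05 there, Col8a2, Col12a1 and Col14a1 were higher in KK/HlJ (with 3.21% of genes), Col12a1, Col14a1 and Col16a1 in C3H/HeJ (3.41%) and Col8a1 in C57BL/6 (0.241%).

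The call depended on the tool, its settings and single libraries, and the number of calls over all genes moved as well. DESeq2 called 2 of the 6, Col12a1 (adjusted p = 0.00099) and Col14a1 (0.000832), among 100 of 15762 genes (0.634%). The edgeR test without a filter on low counts called 3, adding Col8a1 (0.032), among 97 of 26191 genes (0.37%). With offsets for length and GC content it called Col12a1 (0.0464) among 26 genes (0.165%). limma's voom called no member among its 10 genes (0.0634%), with an adjusted p of 0.446 for Col12a1 and 0.0528 for Col14a1. Without C3H/HeJ sham replicate 2, edgeR called Col12a1 and Col14a1 among 109 genes (0.692%), and without KK/HlJ sham replicate 2 the same pair among 82 genes (0.52%). Without KK/HlJ ISO day 14 replicate 2 it called Col12a1 among 71 genes (0.45%). Without the 4 libraries that agreed least with the others it called 141 genes (0.895%) and no member, with log2 fold changes of 1.22 for Col12a1 and 0.73 for Col14a1. Summed markers of other cells had different ranges in the conditions, with overlap. The 7 tendon and valve-like markers summed to 189 to 519 CPM in ISO libraries of day 14 and 176 to 478 CPM in those of day 21, against 123 to 271 CPM in sham. The 11 pericyte and smooth muscle markers summed to 920 to 3838 CPM at ISO day 14 and 1072 to 2133 CPM at ISO day 21, against 1508 to 5515 CPM in sham. The 8 Schwann and glial markers summed to 84.9 to 155 CPM over the 12 ISO libraries and 128 to 217 CPM in sham. The 9 macrophage and monocyte markers summed to 7.53 to 127 CPM at ISO day 14 (median 31.8) and 11 to 218 CPM at ISO day 21 (median 21.3), against 12.3 to 23.2 CPM in sham (median 18.4). Fcgr1 was at 0 in every sham library. The 11 endothelial markers summed to 222 to 425 CPM at ISO day 14 and 299 to 1141 CPM at ISO day 21, against 200 to 551 CPM in sham. None of these tendon, pericyte or Schwann markers was at 0 in all libraries, and the part of the 5 lists in the collagen results was not tested. In bulk RNA, fewer cells of a type and less RNA per cell cannot be told apart.

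**Figure D3:**
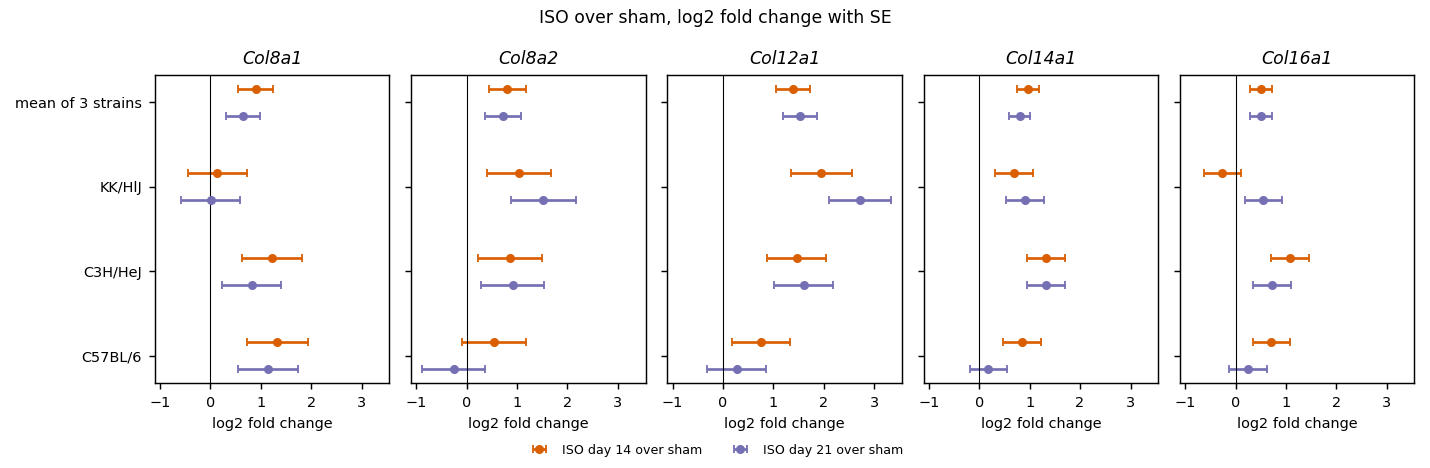
Log2 fold change of ISO over sham (x axis) for the 5 genes with reads in every library, averaged over the 3 strains and within each strain, at day 14 and day 21. Points are edgeR estimates and bars their SE. Col8a1, Col12a1 and Col14a1 lie right of 0 in each strain and day, with the largest value for Col12a1 in KK/HlJ at day 21, 2.72. Some lie within their SE of 0, such as Col8a1 in KK/HlJ at day 21 (0.01, SE 0.587). So do Col12a1 (0.27, SE 0.577) and Col14a1 (0.18, SE 0.372) in C57BL/6 at day 21.

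Col12a1, the larger of the FACITs that coat collagen I fibrils, had the widest separation between ISO and sham. In KK/HlJ it stood at 30.5 and 56.5 CPM at ISO day 14 and 63.1 and 85.7 CPM at ISO day 21, against 6.44 and 16.1 CPM in sham. In C3H/HeJ it stood at 19.1 and 44.7 CPM at ISO day 14 and 28.5 and 41.6 CPM at ISO day 21, against 6.6 and 16.5 CPM in sham. All 4 ISO libraries lay above both sham libraries in these strains, as did 5.78% of all genes tested in KK/HlJ and 10.4% in C3H/HeJ. C57BL/6 overlapped, with 34.5 and 49.8 CPM at ISO day 14 and 36.6 and 23.6 CPM at ISO day 21, against 27.9 and 22.1 CPM in sham. In all, 11 of 12 ISO libraries exceeded both sham libraries of their strain, and 0.355% of genes reached at least that count. The log2 fold change over both days was 2.34 in KK/HlJ (SE 0.565; edgeR adjusted p = 0.347), 1.53 in C3H/HeJ (SE 0.539; 0.628) and 0.51 in C57BL/6 (SE 0.51; 1). DESeq2 gave an adjusted p of 0.00553 in KK/HlJ, where it called 147 genes (0.933%). The KK/HlJ value was 3.14 without sham replicate 2, which edgeR called (adjusted p = 0.0408) among 204 genes (1.29%), with a median over all genes of 0.29. It was 1.82 without sham replicate 1.

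The difference between the strains' responses was tested directly for the same gene. Col12a1's ISO response over both days was higher in KK/HlJ than in C57BL/6 by 1.83 on the log2 scale (SE 0.716; edgeR adjusted p = 0.93), where the median over all genes was 0.18. At day 21 alone this difference was 2.46 (SE 0.829; unadjusted p = 0.00713, adjusted p = 0.703). The sham libraries also differed in level, since Col12a1 averaged 11.3 ± 6.81 CPM in KK/HlJ sham and 11.6 ± 7 CPM in C3H/HeJ sham, against 25 ± 4.13 CPM in C57BL/6 sham (SD, n = 2 each). The sham differences were -1.15 for KK/HlJ minus C57BL/6 (SE 0.587; edgeR adjusted p = 0.968) and -1.11 for C3H/HeJ minus C57BL/6 (SE 0.585; 0.947). None of these differences passed the test. For the responses over both days edgeR called no member and no gene at all between KK/HlJ and C3H/HeJ, KK/HlJ and C57BL/6, or C3H/HeJ and C57BL/6 (0% each), with Col12a1 alone of the 5 measured members at an unadjusted p under 0.05, and DESeq2 called no member. Between sham groups edgeR and DESeq2 called no member and none had an unadjusted p under 0.05, while edgeR called 0.152% of genes for KK/HlJ minus C3H/HeJ, 0.0508% for KK/HlJ minus C57BL/6 and 0.102% for C3H/HeJ minus C57BL/6.

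Col14a1, the other FACIT with 5 short runs, was the most abundant member. In C3H/HeJ it stood at 1746 and 2136 CPM at ISO day 14 and 2008 and 1896 CPM at ISO day 21, against 565 and 985 CPM in sham. Every C3H/HeJ ISO library was above both sham libraries, as for 10.4% of all genes tested. In KK/HlJ it stood at 1121 and 1900 CPM at ISO day 14 and 1412 and 2078 CPM at ISO day 21, against 651 and 1225 CPM in sham, so that 1 ISO library fell within the sham range. In C57BL/6 it stood at 1394 and 1249 CPM at ISO day 14 and 612 and 1047 CPM at ISO day 21, against 650 and 812 CPM in sham, with overlap at day 21. Over the strains 10 of 12 ISO libraries exceeded both sham libraries, which 1.09% of genes equalled or passed. The log2 fold change over both days was 0.79 in KK/HlJ (SE 0.333; edgeR adjusted p = 0.717), 1.33 in C3H/HeJ (SE 0.343; 0.364) and 0.52 in C57BL/6 (SE 0.329; 1). DESeq2 called Col14a1 in C3H/HeJ (adjusted p = 0.00715), among 67 genes (0.425%). The response difference of C3H/HeJ minus C57BL/6 was 0.81 over both days (SE 0.456; edgeR adjusted p = 1) and 1.15 at day 21 (SE 0.527; 0.801).

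Col16a1, the most interrupted member, differed by less. In KK/HlJ it stood at 153 and 254 CPM at ISO day 14 and 389 and 324 CPM at ISO day 21, against 220 and 268 CPM in sham. In C3H/HeJ it stood at 326 and 445 CPM at ISO day 14 and 301 and 300 CPM at ISO day 21, against 130 and 235 CPM in sham. In C57BL/6 it stood at 343 and 214 CPM at ISO day 14 and 154 and 249 CPM at ISO day 21, against 192 and 149 CPM in sham. Only in C3H/HeJ did all 4 ISO libraries lie above both sham libraries. Of all genes tested 10.4% did so in C3H/HeJ, against 5.78% in KK/HlJ and 3.15% in C57BL/6. Over the strains 9 of 12 ISO libraries of Col16a1 lay above both sham libraries (at least 9 in 3.05% of genes). KK/HlJ was split by day, at -0.26 on the log2 scale at day 14 (SE 0.371; edgeR adjusted p = 0.962) and 0.55 at day 21 (SE 0.372; 0.79). The day 21 minus day 14 difference in KK/HlJ was 0.81 (SE 0.373; unadjusted p = 0.0416, adjusted p = 1).

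The chains of collagen VIII are given side by side, and the difference between them was not tested. Col8a1 in C57BL/6 stood at 505 and 193 CPM at ISO day 14 and 453 and 158 CPM at ISO day 21, against 129 and 148 CPM in sham. All 4 ISO libraries were above both sham libraries there, as for 3.15% of genes. On total counts 1 of the 2 ISO libraries of day 21 was not, at 154 CPM against 156 CPM in sham replicate 2. The 2 ISO libraries of a day stood further apart than the lower of them from sham. In C3H/HeJ it stood at 250 and 246 CPM at ISO day 14 and 114 and 259 CPM at ISO day 21, against 144 and 68.1 CPM in sham. KK/HlJ overlapped throughout, with 186 and 270 CPM at ISO day 14 and 120 and 298 CPM at ISO day 21, against 236 and 179 CPM in sham. Over both days the log2 fold change was 0.07 in KK/HlJ (SE 0.51; edgeR adjusted p = 1), 1.02 in C3H/HeJ (SE 0.533; 0.784) and 1.24 in C57BL/6 (SE 0.538; 1). In KK/HlJ the sign turned when length and GC content were corrected for (-0.14), and with single libraries left out the value ran from -0.33 to 0.31.

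Col8a2 had its highest fold change in KK/HlJ, where it stood at 61.3 and 39.9 CPM at ISO day 14 and 86.5 and 54.3 CPM at ISO day 21, against 41.2 and 8.04 CPM in sham. In C3H/HeJ it stood at 52.6 and 83.8 CPM at ISO day 14 and 89.9 and 51.5 CPM at ISO day 21, against 22.5 and 52.7 CPM in sham. In C57BL/6 it stood at 43.2 and 39.4 CPM at ISO day 14 and 24.6 and 23.1 CPM at ISO day 21, against 42.2 and 14.8 CPM in sham. With TMM scaling ISO and sham libraries overlapped in every strain, and 6 of 12 ISO libraries exceeded both sham libraries of their strain. On total counts 8 did, all 4 in KK/HlJ and all 4 in C3H/HeJ but none in C57BL/6, and with RLE scaling 8 did as well. With TMM scaling all 4 lay above both sham libraries for 5.78% of genes in KK/HlJ and 10.4% in C3H/HeJ. Shares of genes under the other scalings are not given, so these counts have no background beside them. The log2 fold change over both days was 1.28 in KK/HlJ (SE 0.579; edgeR adjusted p = 0.725), 0.88 in C3H/HeJ (SE 0.565; 0.818) and 0.14 in C57BL/6 (SE 0.547; 1). In KK/HlJ it was 2.88 without sham replicate 1 and 0.54 without sham replicate 2. The response difference of KK/HlJ minus C57BL/6 was 1.14 for Col8a2 (SE 0.774; edgeR adjusted p = 0.959) and -1.17 for Col8a1 (SE 0.722; 0.946), and neither passed the test. Across the 18 libraries log2 CPM of the partner chains had a Pearson correlation of -0.06.

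Col11a1 was near the limit of detection. In KK/HlJ it had 0 and 42 reads at ISO day 14 and 0 and 21 reads at ISO day 21, against 0 and 0 reads in sham. In C3H/HeJ it had 47 and 26 reads at ISO day 14 and 0 and 41 reads at ISO day 21, against 0 and 1 read in sham. In C57BL/6 it had 24 and 106 reads at ISO day 14 and 0 and 0 reads at ISO day 21, against 12 and 34 reads in sham. Above 3 reads, taken as the floor for counting error, were 5 of 6 ISO libraries of day 14, 2 of 6 of day 21 and 2 of 6 sham libraries. No fold change is given for this gene, since groups without reads leave the fitted values without a bound. Libraries without Col11a1 also lacked more genes in general: among the 9 libraries with 0 or 1 read, 11.3% to 31.2% of tested genes had no read (median 23.5%), and among the 9 with more than 3 reads, 6.53% to 20.8% (median 11.9%). The part of this in the Col11a1 pattern was not tested.

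**Figure D4:**
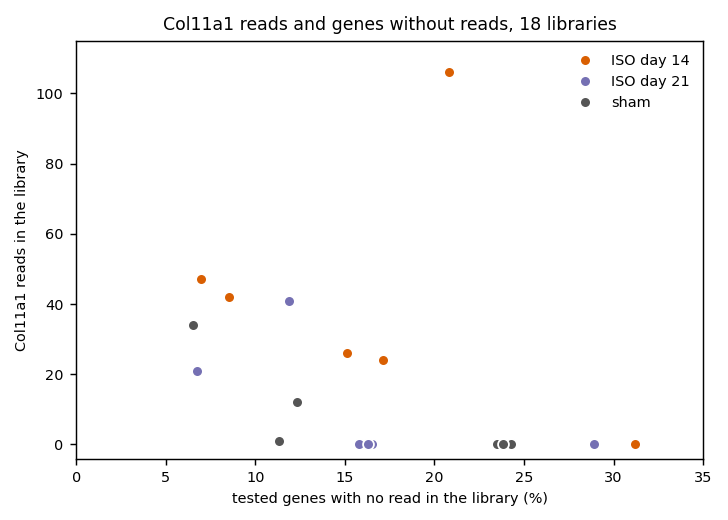
Col11a1 reads (y axis) against the share of the 15762 tested genes without a read in the same library (x axis, percent), 18 libraries coloured by condition. The 9 libraries with 0 or 1 read include those with the highest share of genes without reads, up to 31.2%, and C57BL/6 ISO day 14 replicate 2 stands apart at 106 reads.

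Day 14 and day 21 gave like values in the mean over strains, while single strains differed in direction. Averaged over strains the log2 fold change at day 14 was 1.39 for Col12a1 (SE 0.34; edgeR adjusted p = 0.201), 0.96 for Col14a1 (SE 0.216; 0.144), 0.90 for Col8a1, 0.81 for Col8a2 and 0.51 for Col16a1. At day 21 it was 1.53 for Col12a1 (SE 0.341; edgeR adjusted p = 0.194), 0.80 for Col14a1 (SE 0.216; 0.488), 0.65 for Col8a1, 0.72 for Col8a2 and 0.50 for Col16a1. No member was called at either day, against 6 genes (0.0381%) at day 14 and 7 (0.0444%) at day 21, while DESeq2 called Col12a1 and Col14a1 at both, among 74 genes (0.469%) at day 14 and 49 (0.311%) at day 21. At an unadjusted p under 0.05 all 5 measured members were higher at day 14 and 3 at day 21, where 3.12% and 2.94% of genes were. The choice of the genes with earlier results known limits this contrast as well. The direct differences of day 21 minus day 14 lay between -0.24 and 0.14 with SEs of 0.214 to 0.362, and no gene of 15762 was called by edgeR (0%), with 1.86% at an unadjusted p under 0.05 and none of the 5 members among them. In C57BL/6 the 5 day differences were all negative, from -0.19 to -0.79, the largest relative to its SE being that of Col14a1 (-0.67, SE 0.373; edgeR adjusted p = 0.903). In KK/HlJ they were 0.81 for Col16a1 (SE 0.373), 0.77 for Col12a1 (SE 0.579) and 0.48 for Col8a2 (SE 0.629). Col14a1 there was at 0.21 (SE 0.372) and Col8a1 at -0.13 (SE 0.587). In C3H/HeJ the day differences lay between -0.41 and 0.14.

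The other collagens and their partners were counted from lists in the same comparison of ISO with sham over both days and 3 strains. At an unadjusted p under 0.05, 3.21% of all genes tested were higher there and 3.48% lower. Of 10 fibrillar collagens tested none was called and 4 were higher at an unadjusted p under 0.05, among them Col3a1 at 0.90 on the log2 scale (SE 0.258; edgeR adjusted p = 0.412), Col5a2, a regulator of fibril width, at 0.70 (SE 0.208; 0.404) and Col1a1 at 0.38 (SE 0.167; 0.696). The 8 fibrillar collagens with reads in every group had a median of 0.46. Of 8 further FACIT and short-chain collagens 5 could be tested, none reached an unadjusted p under 0.05, and 3 of these 5 lacked reads in at least 1 group. The 2 with reads in every group had a median of -0.28, and 0 of these 2 were positive. Of 20 basement membrane, beaded and transmembrane collagens tested, none was called, 1 was higher and 1 lower at an unadjusted p under 0.05, the higher being Col4a5, a basement membrane chain, at 0.67 (SE 0.297; edgeR adjusted p = 0.724), and the 15 with reads in every group had a median of -0.05. The lower one, Col25a1, lacked reads in at least 1 group and no fold is given for it. The difference between lists was not tested.

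None of the 8 collagen receptors was called or reached an unadjusted p under 0.05, where 3.21% of all genes tested were higher and 3.48% lower. The nearest were Itgb1, the beta chain of the collagen-binding integrins, at 0.29 (SE 0.187; edgeR adjusted p = 0.878) and Ddr2, the receptor tyrosine kinase for fibrillar collagen on fibroblasts, at 0.32 (SE 0.214; 0.885). Of 31 genes for folding, processing and crosslinking none was called and 3 were higher at an unadjusted p under 0.05, including Plod2, which hydroxylates telopeptide lysines before crosslinking, at 1.19 (SE 0.291; edgeR adjusted p = 0.167), and P4ha3, a subunit of collagen prolyl hydroxylase, which lacked reads in at least 1 group. Of 15 fibril partners, Postn rose by 2.17 (SE 0.215; edgeR adjusted p = 1.49e-05), and 5 in all were higher at an unadjusted p under 0.05. Postn, a matricellular protein of activated fibroblasts, averaged 1467 ± 585 CPM at ISO day 14 and 1748 ± 684 CPM at ISO day 21, against 347 ± 143 CPM in sham, in KK/HlJ (SD, n = 2 each).

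Among 9820 genes with a mean of at least 5 CPM, the genes whose log2 CPM followed each member most closely over the 18 libraries differed from member to member. These correlations describe libraries that share strain, condition and depth, and carry no test. Col14a1 was nearest to Col3a1 (Pearson r = 0.92), followed by Fn1, the gene of fibronectin (0.91), Antxr1, a receptor that binds collagen (0.89), Csf1, a macrophage growth factor (0.88), and Olfml2b (0.87). Col12a1 was nearest to Sulf1, an enzyme that trims sulfate from heparan sulfate (0.89), Robo1, a guidance receptor (0.86), Zfp207 (0.86), the complement component C7 (0.85) and Prkci (0.84). Col16a1 was nearest to Sfrp1, a secreted Wnt modulator (0.82), Afg3l2 (0.82), Lamp1 (0.82), Col3a1 (0.81) and Enpp1 (0.81). Col3a1 was the only gene ranked in the first 5 of more than 1 member. Col8a1 was nearest to Enah, an actin regulator (0.90), Medag (0.87), Vcan, a proteoglycan (0.84), Pafah1b1 (0.84) and Bnip2 (0.83). Col8a2 was nearest to Sdc1, a cell surface proteoglycan (0.87), Crtc1 (0.86), Desi1 (0.84), Ltbp2, a matrix protein of microfibrils (0.81), and Smim3 (0.79). Col11a1, which had no read in 8 libraries, was nearest to Pdcd6ip (0.83), Lpgat1 (0.82), Adgra3 (0.81), Pde4b (0.79) and Pak2 (0.79). Between members the highest correlation was that of Col14a1 with Col16a1 (0.80), followed by Col14a1 with Col12a1 (0.64).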

How the data were processed

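The sorted cells went straight into a lysis reagent and mRNA libraries were read as single ends, per the labels' protocols. FastQC, STAR 2.5.3a, edgeR and the build mm10 are named in the submitters' processing notes. The deposited values are raw counts for each Ensembl gene, to which the authors applied no normalization. No annotation release, counter or strand setting is stated in the sources used here. Reads of KK/HlJ and C3H/HeJ mice were mapped to a reference made from C57BL/6, so sequence variants can change the counts of those strains. Of 53342 identifiers 53237 matched GENCODE M21, and the 105 others held 0.00159% of reads.

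Counts were tested with edgeR 4.0.16 in R 4.3.3 (quasi-likelihood test, robust fit, TMM scaling, default filter on the 9 groups, 15762 genes). All 18 libraries entered 1 fit with 9 residual degrees of freedom and 28 comparisons, each adjusted over all genes tested by Benjamini-Hochberg and called at 0.05. CPM use TMM effective library sizes, log2 CPM a prior count of 2, and the floor of 3 reads covers counting error only. SEs come from the fold change and its F statistic.

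The 6 genes and the gene lists were chosen with earlier results of these data known. Genes of the lists are named when called in the mean over both days and strains, otherwise up to 2 per list with the smallest adjusted p, without a fold where a group had no reads. Col1a1, Col3a1 and Postn are named in any case. For each member the 5 genes with the highest Pearson correlation are named. Promoters came from RefSeq for Col8a1, Col8a2, Col11a1 and Col16a1. Alternatives were RLE scaling, DESeq2 1.42.0, limma 3.58.1 (voom with library quality weights), no filter (26191 genes), the replicate number as a block, offsets for length and GC content (15752 genes), fits of only the groups compared, each library left out, and 4 libraries left out together.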

Additional observations from a re-analysis of the deposited data

How the results depend on the processing

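In the means of ISO over sham across strains the 5 members with reads in every library stayed higher in ISO under each alternative run, and the question was whether any was called. With edgeR none of the 6 was called in any of the 28 comparisons. Without the filter on low counts, 3 members were called over both days, among 97 of 26191 genes. At day 14 it was 3 members among 75 genes, and at day 21 it was 2 among 55. In C3H/HeJ 1 was called over both days, among 51 genes. In KK/HlJ 1 was called over both days, among 89 genes, and 1 at day 21, among 41. DESeq2 called 2 members over both days, among 100 of 15762 genes, 2 at day 14, among 74, and 2 at day 21, among 49. In C3H/HeJ it called 1 over both days, among 67 genes, and 1 at day 21, among 33. In KK/HlJ it called 1 over both days, among 147 genes, and 1 at day 21, among 73. Offsets for length and GC content gave 1 call over both days, Col12a1 at 1.22 (adjusted p = 0.0464), among 26 of 15752 genes. RLE scaling, limma's voom, fits of only the groups compared and leaving out the 4 libraries that agreed least gave 0 calls among members. The cause of these changes was not tested. A fit with a single library left out has a group of 1 library, which has no spread of its own. With single libraries left out the count of called members ran from 0 to 2 over both days, 0 to 2 at day 14, 0 to 1 at day 21, and 0 to 1 in KK/HlJ over both days and at day 21.

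Replicate numbers did not pair the libraries: of 36 pairs of groups 9 had same-numbered deviations correlated above 0.1, and the median was -0.01 (from -0.144 to 0.163). With the replicate block 2 members were called over both days, Col12a1 (adjusted p = 0.045) and Col14a1 (0.0211), among 15 of 15762 genes. At day 14 it was Col14a1 alone, among 8 genes.

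Over all genes the count of calls for both days was 9 in the edgeR test, 100 with DESeq2, 97 without the filter, 26 with the offsets, 15 with the replicate block, and 141 without the 4 libraries, and it ran from 2 to 109 with single libraries left out. Of 2135 member values under alternatives, 120 had another sign than reported, none of them called and none reported above 0.74 in size. Mean levels moved by less than the spread between libraries under total-count or RLE scaling. Each group had 2 libraries, and Col11a1 had at most 3 reads in 9 of 18.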
